A study of Mus musculus with 9 samples.

Results

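The transcripts of 5 regulators of the effector programme of invariant natural killer T (iNKT) cells, *Tbx21*, *Zfp683*, *Prdm1*, *Hopx* and *Nfil3*, were followed across stage 2, stage 3 and *Med23*-deficient stage 2 cells. They were chosen by symbol, as known factors of the NKT1 subset and of tissue-resident effector lymphocytes, with earlier results of these data known. Each matched 1 row, so that they make up 5 of the 21883 genes in the expression table. iNKT cells are T cells with an invariant T cell receptor that recognizes glycolipids on CD1d, and in the thymus they pass from stage 2, with high CD44 and low NK1.1, to stage 3, with high CD44 and high NK1.1. The study asked which transcripts accompany that step and how they stand when Med23, a subunit of the Mediator complex that links transcription factors to RNA polymerase, is lost.

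RNA was sequenced from sorted thymic iNKT cells in 9 libraries, 3 per group, all labelled as C57BL/6. The WT stage 2 and WT stage 3 groups came from wild-type mice given as 6 weeks old. The third group, labelled *Med23*-deficient iNKT at stage 2, came from mice whose floxed *Med23* is deleted by a *Cd4*-Cre transgene. That Cre acts in every thymocyte that passes the double-positive stage, conventional T cells included, so the deletion is confined neither to iNKT cells nor to stage 2, and the age and sex of these mice are not given for the libraries. *Med23*-deficient stage 3 cells were not analysed here. The *Med23*-deficient samples carry a separate, later run of sample numbers than the WT samples. The study does not say whether the libraries of both genotypes were prepared and sequenced together. Genotype therefore cannot be told apart from a difference in preparation or sequencing. The labels do not say whether the libraries of a group came from separate mice, so each p-value measures only the spread between libraries. Values are FPKM, fragments on a gene scaled for transcript length and for mapped reads, and since no read counts were used the depth of each library is unknown. Differences are on the log2(FPKM + 1) scale, which understates those of genes near 0, with 95% intervals from limma. In bulk RNA, fewer cells expressing a gene and less RNA per cell cannot be told apart.

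T-bet, the product of *Tbx21*, is the T-box factor that directs the type 1 fate: it acts on genes for interferon gamma, chemokine receptors and cytotoxic molecules, and iNKT cells need it for terminal maturation and for expression of the interleukin 15 receptor chain CD122. Hobit, the product of *Zfp683*, and Blimp-1, the product of *Prdm1*, are related zinc-finger repressors. Both hold back genes of tissue exit and recirculation in resident lymphocytes, and Hobit is needed for the effector maturation of mouse iNKT cells. HOPX is a small homeodomain protein that binds no DNA itself and supports the persistence of type 1 effector T cells. NFIL3, also called E4BP4, is a basic leucine zipper factor that represses at D-box sequences, shared with the circadian clock, and is required for the NK cell and innate lymphoid lineages.

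All 5 genes lie on different chromosomes, and their spans in the table are given on mm10. *Tbx21* (ENSMUSG00000001444) spans chr11:97098071-97115331 on the minus strand, and *Zfp683* (ENSMUSG00000049410) spans chr4:134053838-134058996 on the plus strand. *Prdm1* (ENSMUSG00000038151) spans chr10:44437177-44528501, *Hopx* (ENSMUSG00000059325) chr5:77086988-77115121 and *Nfil3* (ENSMUSG00000056749) chr13:52967209-52981073, all 3 on the minus strand. *Hopx* has 3 annotated coding transcripts with different starts, and an antisense gene, *Hopxos*, overlaps it on the plus strand at chr5:77094532-77102303. The counting is not stated to have used strand, so reads of *Hopx* and *Hopxos* may not have been kept apart. The antisense gene itself stood at an FPKM of at most 2.37 in any library.

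RefSeq promoters (GRCm38.p6) were found for 4 of the 5 genes, all but *Zfp683*, and the 250 bases before the start site were searched on both strands for letters of factors that work with this family. Shown 5′ to 3′ on the gene's own strand are *Tbx21* (chr11:97115332-97115581, minus strand) and *Prdm1* (chr10:44458749-44458998, minus strand), the first as the promoter of the leading type 1 factor and the second as the only one that held the letters of AP-1, a factor family that the study followed in *Med23*-deficient cells, with capitals marking each match.
Tbx21: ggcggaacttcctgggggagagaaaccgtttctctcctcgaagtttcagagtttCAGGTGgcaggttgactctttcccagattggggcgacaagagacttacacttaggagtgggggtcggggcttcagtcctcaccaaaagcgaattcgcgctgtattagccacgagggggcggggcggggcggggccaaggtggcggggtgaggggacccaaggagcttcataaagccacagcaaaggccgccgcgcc
Prdm1: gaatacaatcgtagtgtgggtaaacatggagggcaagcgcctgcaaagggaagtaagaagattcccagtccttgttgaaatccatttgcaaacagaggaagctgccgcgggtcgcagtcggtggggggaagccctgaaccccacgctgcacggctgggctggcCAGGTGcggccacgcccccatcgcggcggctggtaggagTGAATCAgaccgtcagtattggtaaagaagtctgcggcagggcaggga
The capitals in *Tbx21* are CAGGTG, a form of the E-box letters searched, CANCTG, as read on the other strand (CAGNTG). The match begins 196 bases before the start site. In *Prdm1* CAGGTG begins 87 bases before the start and TGAATCA, a form of the AP-1 letters TGANTCA, 48 bases before it. The AP-1 letters as searched leave the middle base free, and they stood in 6.75% of 32851 promoters of this length, against 44.8% for CANCTG. *Nfil3* held CAGCTG, again of the form CANCTG, and neither *Hopx* promoter held any of the letters searched. Other forms of the E-box, such as CACGTG, were not searched for. CACGTG stands in the *Hopx* promoter at chr5:77095268-77095517. The T-box core TCACAC (12.3% of promoters), the Runx letters TGTGGT (14%) and the D-box TTANGTAA (2.06%) were in none of the windows. Matches of letters are a description and show no binding. The GC content was 60.8% for *Tbx21*, 59.2% for *Prdm1* and 81.6% for *Nfil3*, and 52.4% and 57.6% for the *Hopx* promoters, beside a median of 52.4% over all promoters.

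*Med23*, the deleted gene, had an FPKM of 4.80, 3.60 and 3.92 in the *Med23*-deficient libraries, 5.51, 5.15 and 6.74 in WT stage 2 and 7.14, 4.44 and 6.12 in WT stage 3. Each *Med23*-deficient value lay below each WT stage 2 value, at a log2 difference of −0.41 (adjusted p = 0.552, limma with Benjamini-Hochberg adjustment), and a gene-level FPKM pools deleted and retained exons. Genes above 0 numbered 15584 to 17333 per library, and 1 short gene model, *Gm23935*, held 62.2 to 71.9% of the summed FPKM. The markers of the iNKT lineage and of the gates (*Cd3e*, *Cd3g*, *Zbtb16*, *Cd44*, *Klrb1c*, *Cd24a*) were all in the table and summed to 446–502 FPKM in WT stage 2, 431–494 in *Med23*-deficient stage 2 and 444–513 in WT stage 3. *Klrb1c* encodes NK1.1, on which the stages were sorted, and it stood at 7.65 to 26.2 in WT stage 2, 2.61 to 4.6 in *Med23*-deficient stage 2 and 57.3 to 95.1 in WT stage 3.

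The levels of the 5 genes spanned a wide range within every library. *Zfp683* was the most abundant, at 47.4 ± 1.2 FPKM (SD, n = 3) in WT stage 2, 68.1 ± 15.1 in *Med23*-deficient stage 2 and 112 ± 11.6 in WT stage 3, followed by *Tbx21* at 29.4 ± 8.43, 38.9 ± 4.40 and 73.2 ± 15.3. *Hopx* had an intermediate level, and *Nfil3* and *Prdm1* were low in all groups. Among the genes above 0 in each group, the mean FPKM of *Zfp683* stood at the percentiles 96.2, 97.7 and 98.7 in the same order of groups, and that of *Prdm1* at 25.7, 36.0 and 44.2. The FPKM of *Zfp683* was 48.6 to 920 times that of *Prdm1* in the 9 libraries, the highest ratio coming from the WT stage 2 library in which *Prdm1* was 0.05. *Zfp683* also exceeded *Tbx21* in every library, by a ratio of 1.29 to 2.36 in WT stage 2, 1.46 to 1.95 in *Med23*-deficient stage 2 and 1.37 to 1.78 in WT stage 3, ranges that overlapped.

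**Figure D1:**
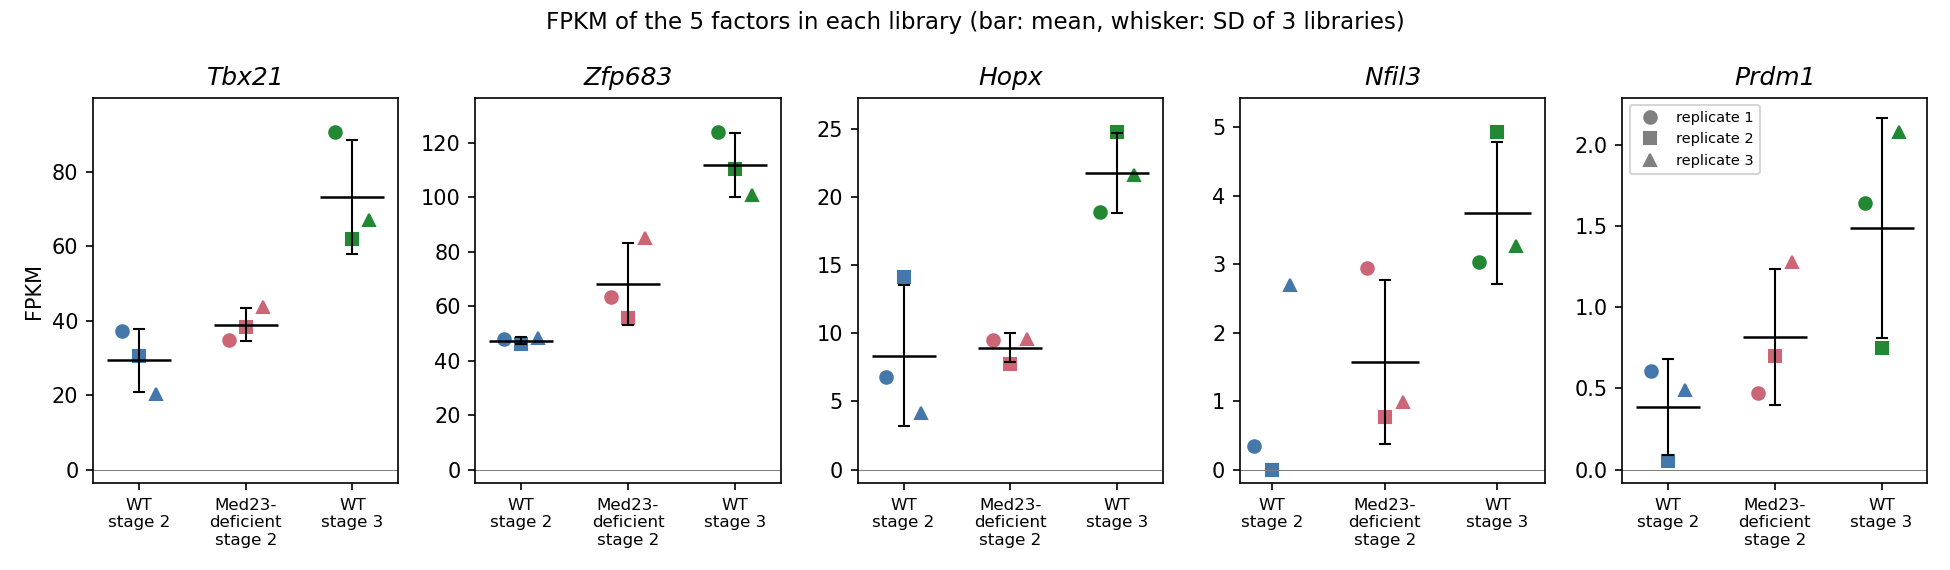
FPKM (y axis, linear, a separate scale for each gene) of *Tbx21*, *Zfp683*, *Hopx*, *Nfil3* and *Prdm1* in the 3 libraries of each group, with bars for means and whiskers for the SD. No mean is drawn for *Nfil3* in WT stage 2, where 1 library is listed at 0. All WT stage 3 points lie above all WT stage 2 points for each gene, while the *Med23*-deficient points overlap those of WT stage 2 for every gene except *Zfp683*.

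All 5 factors had higher values in WT stage 3 than in WT stage 2 cells, with no overlap between the libraries of the 2 groups for any of them. Over all 20689 genes tested, 7.36% were higher in WT stage 3 without overlap. Of the 5, *Zfp683* rose by an adjusted p of at most 0.05 (limma with Benjamini-Hochberg adjustment), where 0.759% of all genes rose. The study set thresholds of a fold of at least 2 with an unadjusted p of at most 0.05 on Ballgown estimates. Applied here to the limma fit, 4 of the 5 were higher (*Tbx21*, *Zfp683*, *Hopx* and *Nfil3*), beside 1.7% of all genes. With a linear model for each gene alone, with library size as a covariate (Ballgown-style), 1 of the 5 passed them, *Zfp683*. The fold of *Prdm1* was 1.78 on the log2(FPKM + 1) scale, while its ratio of mean FPKM was 3.89. At an unadjusted p of at most 0.05 alone all 5 were higher by limma, where 13.2% of all genes differed in either direction. The median log2 fold change of the 5 was 1.31, and over all genes tested it was −0.01.

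*Tbx21* read 37.2, 30.5 and 20.4 FPKM in the WT stage 2 libraries and 90.7, 62.0 and 66.9 in WT stage 3. The WT stage 3 values were all above the highest WT stage 2 value, although the WT stage 2 libraries were themselves spread, the third being the lowest. The log2 fold change was 1.31 (SE 0.25, 95% interval 0.70 to 1.92), with an unadjusted p of 0.00189 and an adjusted p of 0.0742 (limma). The adjusted p ran from 0.0243 to 0.588 over the alternatives that kept all libraries, passing 0.05 in 3 of 12. The Ballgown-style model gave a log2 fold change of 0.76.

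*Zfp683* was the steadiest of the 5 in WT stage 2, at 47.9, 46.0 and 48.2 FPKM, and stood at 124, 111 and 101 in WT stage 3. The lowest WT stage 3 library was above the highest WT stage 2 library by a wide margin. *Zfp683*, the Hobit gene, rose by a log2 fold change of 1.22 (SE 0.10, 95% interval 0.98 to 1.45) with an adjusted p of 0.01 (limma). That call was lost without WT stage 2 replicate 3 (adjusted p = 0.0588) and without WT stage 3 replicate 2 (0.0526), the log2 difference then being 1.23 and 1.22, and it was also lost with the Ballgown-style model (0.162).

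The *Hopx* libraries of WT stage 2 read 6.79, 14.1 and 4.15 FPKM, and those of WT stage 3 read 18.9, 24.8 and 21.6. Replicate 2 was the highest library in both stages, and the WT stage 2 libraries differed among themselves more than those of WT stage 3. Their difference was a log2 fold change of 1.42 (SE 0.39, 95% interval 0.46 to 2.37), with an unadjusted p of 0.0108 and an adjusted p of 0.180 (limma). The antisense *Hopxos* read 0.11, 0.52 and 0.24 in WT stage 2 and 2.37, 2.32 and 0.65 in WT stage 3, and its part in the *Hopx* difference was not tested.

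The WT stage 2 libraries listed *Nfil3* at 0.35, 0 and 2.70 FPKM, and the WT stage 3 libraries at 3.03, 4.93 and 3.26. Replicate 3 of WT stage 2 came close to the lowest WT stage 3 library, while the other WT stage 2 libraries were near or at 0. The log2 fold change was 1.45 (SE 0.53, 95% interval 0.16 to 2.74, unadjusted p = 0.033, adjusted p = 0.309, limma). It moved to 4.10 with a pseudocount of 0.01, where the unadjusted p was 0.0544 (limma). That p was 0.00154 without WT stage 2 replicate 3, and 0.0566 to 0.0928 on leaving out any other library (limma, pseudocount of 1).

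*Prdm1* read 0.61, 0.05 and 0.49 FPKM in the WT stage 2 libraries, with 1.64, 0.75 and 2.08 in those of WT stage 3. The groups did not overlap, but the lowest WT stage 3 library lay only just above the highest WT stage 2 library. The log2 fold change of this Blimp-1 transcript was 0.83 (SE 0.30, 95% interval 0.11 to 1.56, unadjusted p = 0.0307, adjusted p = 0.298, limma). It was 2.38 with a pseudocount of 0.01 (unadjusted p = 0.0592, limma) and 0.52 with the Ballgown-style model. On leaving out each library the unadjusted p ran from 0.012 to 0.0992 (limma). The mean FPKM over the 6 libraries was below 1.

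**Figure D2:**
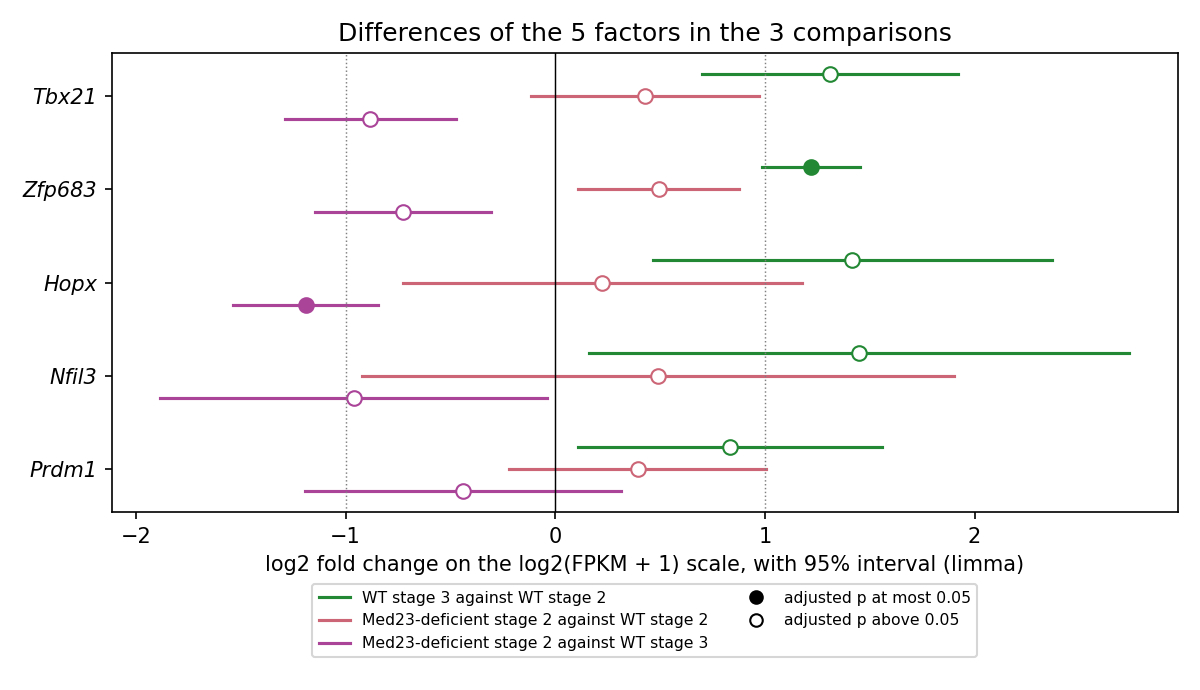
Log2 fold change on the log2(FPKM + 1) scale (x axis) of each factor in the 3 comparisons, points with 95% intervals from limma, filled where the adjusted p is at most 0.05 and with dotted lines at a 2-fold change. The WT stage 3 against WT stage 2 values run from 0.83 to 1.45, the *Med23*-deficient against WT stage 2 values from 0.23 to 0.49, and the *Med23*-deficient against WT stage 3 values from −1.19 to −0.44.

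In *Med23*-deficient stage 2 cells each of the 5 factors had a mean log2 value above that of WT stage 2 cells, and none passed either threshold, where 2.11% of all genes passed the fold and p thresholds. By limma, 0 of 5 had an adjusted p of at most 0.05, beside 0.213% of the 20674 genes tested in either direction, and 1 of 5, *Zfp683*, had an unadjusted p of at most 0.05, beside 9.58%. The Ballgown-style model likewise gave 0 of 5 by adjusted p and 1 of 5 by unadjusted p. *Zfp683* was also the 1 gene of the 5 whose libraries did not overlap, where 5.63% of all genes were higher without overlap. Their log2 fold changes ran from 0.23 to 0.49 with a median of 0.43, beside −0.01 over all genes.

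*Zfp683* read 63.4, 55.9 and 85.0 FPKM in the *Med23*-deficient libraries, against 46.0 to 48.2 in WT stage 2. The *Med23*-deficient values were all higher but much more spread, replicate 3 being far above the other 2. On the log2 scale the difference was 0.49 (SE 0.16, 95% interval 0.11 to 0.88; unadjusted p = 0.020, adjusted p = 0.379, limma), and it was 0.32 without replicate 3 of the *Med23*-deficient group.

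*Tbx21* stood at 34.9, 38.2 and 43.6 FPKM in *Med23*-deficient stage 2 cells, where WT stage 2 libraries read 20.4 to 37.2. The groups overlapped, the highest WT stage 2 library lying between the *Med23*-deficient values. On the log2 scale it differed by 0.43 (95% interval −0.11 to 0.97; adjusted p = 0.622, limma), so that the interval ran from slightly lower to nearly a 2-fold higher level, and it was 0.20 without WT stage 2 replicate 3.

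*Hopx* read 9.52, 7.73 and 9.56 FPKM in the *Med23*-deficient libraries, between the WT stage 2 values of 4.15 and 14.1. The log2 fold change of 0.23 (95% interval −0.73 to 1.18; adjusted p = 0.854, limma) turned to −0.13 without WT stage 2 replicate 3 and to 0.64 without replicate 2 of that group. *Nfil3* was at 2.94, 0.77 and 0.98 FPKM, and *Prdm1* at 0.47, 0.70 and 1.28, both overlapping WT stage 2. *Nfil3* had a log2 fold change of 0.49 (95% interval −0.92 to 1.90; adjusted p = 0.778, limma), which rested on single libraries: it was 0.10 without WT stage 2 replicate 2, 0.32 without replicate 1 and 1.05 without replicate 3 of that group, and 0.13 without *Med23*-deficient replicate 1. For *Prdm1* it was 0.39 (95% interval −0.22 to 1; adjusted p = 0.711, limma), with 0.21 without WT stage 2 replicate 2 and 0.22 without *Med23*-deficient replicate 3, and for both genes it changed by more than 1.5 times with the pseudocount, to 2.62 and 1.52 at 0.01.

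Against WT stage 3, the *Med23*-deficient stage 2 cells had lower values of 4 of the 5 factors without overlap, beside 6.75% of the 20846 genes tested. *Hopx* fell by an adjusted p of at most 0.05 (limma), as did 0.628% of all genes, and it was also the 1 member of 5 that passed the fold and p thresholds, beside 1.48% of all genes in that direction. At an unadjusted p of at most 0.05, 4 of 5 were lower, where 10.2% of all genes differed in either direction. This comparison crosses genotype and stage, and it shares its libraries with the other 2 comparisons.

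*Hopx* fell by 1.19 on the log2 scale (SE 0.14, 95% interval −1.54 to −0.85; adjusted p = 0.0221, limma), from 21.7 ± 2.96 FPKM in WT stage 3 to 8.94 ± 1.05 (SD, n = 3). All the *Med23*-deficient values, 7.73 to 9.56, lay below the lowest WT stage 3 value of 18.9. The adjusted p rose above 0.05 on leaving out any 1 of the 6 libraries, to between 0.0579 and 0.0998, with the log2 fold change at −1.29 to −1.10, and it was 0.198 both with all 9 libraries in 1 fit and with the Ballgown-style model. *Tbx21* had a log2 fold change of −0.88 (95% interval −1.29 to −0.48; adjusted p = 0.0913), with its *Med23*-deficient maximum of 43.6 FPKM under the WT stage 3 minimum of 62.0. *Zfp683* had −0.73 (95% interval −1.15 to −0.31; adjusted p = 0.167), its *Med23*-deficient maximum of 85.0 FPKM approaching the WT stage 3 minimum of 101. *Nfil3* had −0.96 (adjusted p = 0.461) and *Prdm1* −0.44 (adjusted p = 0.750), the first without overlap and the second with it. With a pseudocount of 0.01 these became −1.48 and −0.86, and *Prdm1* ran from −0.67 without WT stage 3 replicate 2 to −0.27 without replicate 3 of that group.

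By group means, *Tbx21*, *Zfp683*, *Hopx* and *Prdm1* shared 1 order, WT stage 2 lowest, *Med23*-deficient stage 2 next and WT stage 3 highest. Of the neighbouring groups in that order, WT stage 2 and *Med23*-deficient stage 2 overlapped for *Tbx21*, *Hopx* and *Prdm1*, and *Med23*-deficient stage 2 and WT stage 3 overlapped for *Prdm1*. For *Nfil3* the middle libraries followed the same order, at 0.35, 0.98 and 3.26 FPKM. The summed FPKM of the 5 factors, most of it *Zfp683* and *Tbx21*, was 76.0 to 92.8 in WT stage 2, 103 to 140.4 in *Med23*-deficient stage 2 and 195 to 238 in WT stage 3. The FPKM ratio of *Tbx21* to *Zbtb16*, which encodes PLZF, the factor of early iNKT cells, was 0.199 to 0.347 in WT stage 2, 0.384 to 0.641 in *Med23*-deficient stage 2 and 1.86 to 3.99 in WT stage 3, with no overlap among the 3 groups. *Zbtb16* itself had means of 101, 78.1 and 27.5 FPKM in that order of groups. Like *Tbx21*, it overlapped between WT stage 2 (87.96 to 112.43) and *Med23*-deficient stage 2 (68.08 to 90.85). How often a ratio of other genes separates these groups was not examined. The ratio of *Hopx* to *Tbx21* overlapped among the 3 groups, at 0.183 to 0.463, 0.203 to 0.273 and 0.208 to 0.399.

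**Figure D3:**
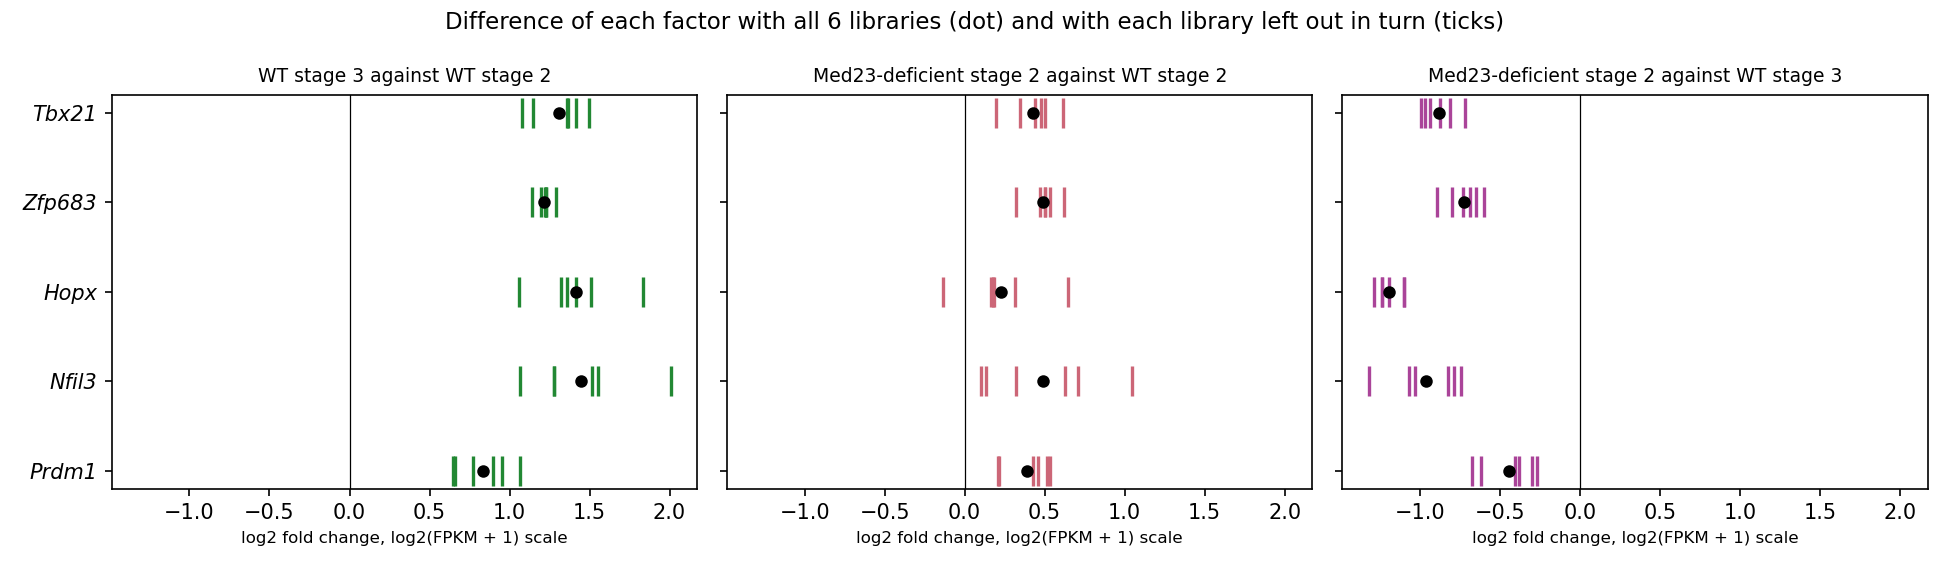
Log2 fold change on the log2(FPKM + 1) scale (x axis) of each factor with all 6 libraries (dots) and with each library left out in turn (ticks), 1 panel per comparison. No tick crosses 0 except *Hopx* in the *Med23*-deficient against WT stage 2 panel, at −0.13 without WT stage 2 replicate 3.

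The libraries did not rank alike for all members. Over the 9 libraries, the Pearson correlation of log2(FPKM + 1) was 0.907 between *Tbx21* and *Zfp683*, the highest of the 10 pairs, and 0.389 between *Hopx* and *Nfil3*, the lowest. Within WT stage 2, replicate 3 was the lowest library for *Tbx21* and *Hopx* and the highest for *Nfil3*. These correlations are descriptions, since the points share libraries and the differences between groups. By the same measure over 9661 genes, 9662 for *Prdm1*, those nearest to *Zfp683* were *Cd160* (r = 0.972), a receptor of cytotoxic lymphocytes, *Pik3cd* (0.971), a leukocyte phosphoinositide 3-kinase subunit, and *Il12rb2* (0.970), an interleukin 12 receptor chain. *Tbx21* was nearest to the splicing factor gene *Srsf5* (0.953), the ketone body enzyme gene *Oxct1* (0.942) and *Fbxo4* (0.935). *Hopx* was nearest to *Lpar6* (0.951), a lysophosphatidic acid receptor, then *Rab8a* (0.949) and *Enpp1* (0.941). *Nfil3* was nearest to *Fbxl17* (0.965), *Ccdc32* (0.958) and *Atp8b2* (0.937), and *Prdm1* to *Pcif1* (0.940), the pseudogene *Polr2k-ps* (0.926) and *Mrto4* (0.908), where sharing of reads with *Polr2k* leaves the pseudogene's value uncertain.

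Genes of the NKT1 effector programme, many of them known to be acted on by T-bet or Hobit, were read from the same fits. This list and those that follow were also chosen with earlier results of these data known. Of 19 NKT1 effector genes tested in WT stage 3 against WT stage 2, 14 rose and 0 fell at an adjusted p of at most 0.05 (limma), where 0.759% of all genes rose. The median log2 fold change of the 19 was 2.22, and 0 fell at an unadjusted p of at most 0.05. The cytotoxic protease *Gzmb* went from 12 ± 2.18 to 175 ± 32.2 FPKM (log2 fold change 3.76, adjusted p = 0.00368), and the activating NK receptor *Klrk1* from 1.45 ± 0.304 to 24.9 ± 6.41 (3.37, adjusted p = 0.00665). *Slamf7*, a SLAM receptor, rose by a log2 fold change of 2.80 and *Il12rb2* by 2.05, each with an adjusted p of 0.00368. For *Med23*-deficient cells set against WT stage 2, 0 of 17 passed the adjusted p in either direction, beside 0.213% of all genes. At an unadjusted p of at most 0.05, 2 were higher and 7 lower, beside 9.58% of all genes in either direction, and the median was −0.44. *Il18r1*, an interleukin 18 receptor chain, had the smallest p there (log2 fold change −1.76, adjusted p = 0.135), followed by *Klrd1*, the CD94 gene (−2.08, adjusted p = 0.204). Against WT stage 3, 13 of 19 fell and 0 rose, with a median of −2.03, where 0.628% of all genes fell. The perforin gene *Prf1* had a log2 fold change of −3.48 (adjusted p = 0.00142), *Gzmb* −4.62 and *Slamf7* −3.22 (adjusted p = 0.00149 for both). *Klrb1c*, which is counted among the 13 although the sort used it, had −4.10.

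Residency and recirculation, which Hobit and Blimp-1 are known to govern, were represented by 7 and 6 genes. At stage 3 in WT cells, 2 of the 7 residency genes rose and 0 fell, *Itga1*, the CD49a integrin chain (log2 fold change 3.15, adjusted p = 0.00368), and *Rgs1*, a brake on chemokine signalling (1.82, adjusted p = 0.0163), where 0.759% of all genes rose. At an unadjusted p of at most 0.05, 5 of the 7 were higher and 1 lower, beside 13.2% of all genes in either direction. The 1 lower was *P2rx7*, at 5.44 to 14.1 FPKM in WT stage 2 and 0.03 to 1.15 in WT stage 3. *Cxcr6* overlapped between these groups, with means of 70.5 and 60.8 FPKM. Of the 6 recirculation genes 4 fell and 0 rose by adjusted p, where 0.914% of all genes fell. They were the lymph node homing receptor *Ccr7* (log2 fold change −3.27, adjusted p = 0.00843), *Tcf7*, which encodes TCF1 (−2.23, 0.0118), the egress receptor *S1pr1* (−2.25, 0.0343) and *Lef1* (−1.22, 0.0408). At an unadjusted p of at most 0.05, 5 of the 6 were lower and 0 higher. *Klf2* of this list went the other way, at 24.6 to 27.5 FPKM in WT stage 2 and 27.8 to 41.8 in WT stage 3. *Med23*-deficient and WT stage 2 cells gave 0 calls in both lists by limma, beside 0.213% of all genes in either direction. At an unadjusted p of at most 0.05, 1 residency gene and 4 recirculation genes were lower and none higher, beside 9.58% of all genes in either direction. *Itgae*, the CD103 integrin chain, had a log2 fold change of −2.51 (adjusted p = 0.0511) and the activation receptor *Cd69* 0.90 (adjusted p = 0.554), while *Klf2*, a driver of egress receptors, had −0.47 (adjusted p = 0.437). Against WT stage 3, where 0.705% of all genes rose and 0.628% fell, *Itgae* and *Itga1* fell and the ATP-gated channel gene *P2rx7* rose (log2 fold changes of −3.28, −2.43 and 2.71, adjusted p = 0.00501, 0.0312 and 0.0408). *Tcf7*, *Ccr7* and *Lef1* rose by 1.83, 2.54 and 1.26 (adjusted p = 0.0174, 0.0230 and 0.0273). The last 3 made up the calls among the 6 recirculation genes. At an unadjusted p of at most 0.05, 4 of these 6 were higher and 1 lower, beside 10.2% of all genes in either direction. *Klf2* was lower, at 16.4 to 24.4 FPKM in *Med23*-deficient stage 2 against 27.8 to 41.8 in WT stage 3.

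**Figure D4:**
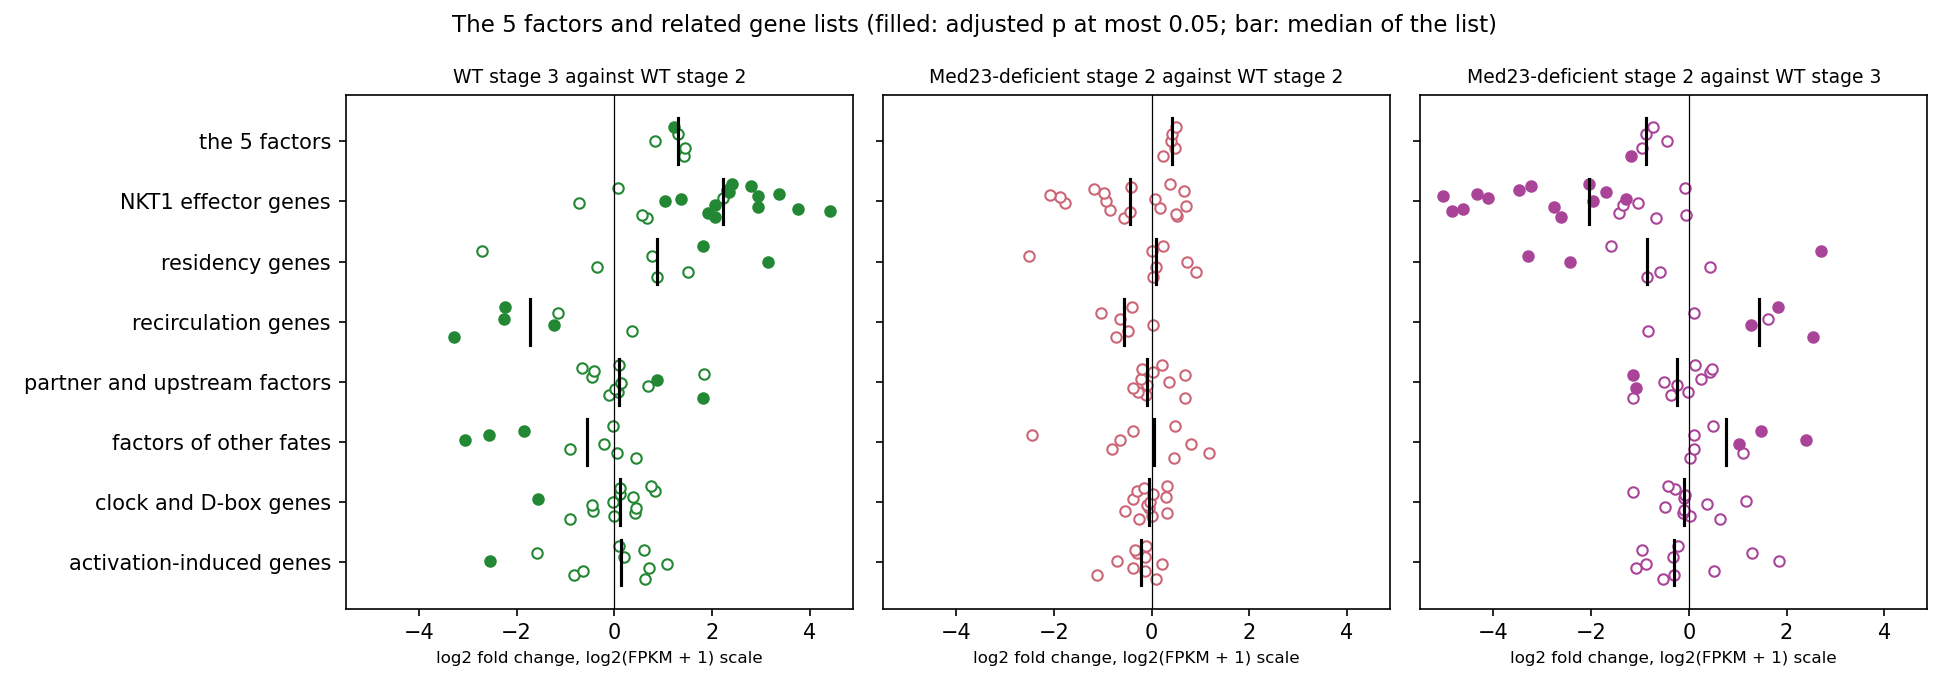
Log2 fold change on the log2(FPKM + 1) scale (x axis) of the 5 factors and of the genes of 7 related lists (rows), 1 panel per comparison, each point a gene, filled at an adjusted p of at most 0.05, with a bar at the median of each list. In the WT stage 3 against WT stage 2 panel the median is 1.31 for the 5 factors and 2.22 for the NKT1 effector genes, and in the *Med23*-deficient against WT stage 2 panel it is 0.43 and −0.44.

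Other regulators near the 5 factors were mixed. Of 12 partner and upstream factors, 2 rose in WT stage 3 against WT stage 2 and 0 fell: *Bhlhe40*, a helix-loop-helix repressor (log2 fold change 1.82, adjusted p = 0.0239), and *Runx3*, a partner of T-bet (0.87, adjusted p = 0.0399), where 0.759% of all genes rose. The list's median was 0.09, and 4 of the 12 were higher and 2 lower at an unadjusted p of at most 0.05, beside 13.2% of all genes in either direction. With *Med23*-deficient against WT stage 2 cells 0 of 11 passed by limma, beside 0.213% of all genes in either direction. At an unadjusted p of at most 0.05, 2 were higher and 1 lower, beside 9.58% of all genes in either direction. The smallest p belonged to *Zeb2* (0.22, adjusted p = 0.331) and *Id2* (−0.38, adjusted p = 0.342). Against WT stage 3, *Id2*, an inhibitor of E proteins, and *Stat4*, the transducer of interleukin 12, fell (−1.08 and −1.15, adjusted p = 0.0220 and 0.0230), 2 of 11 genes, beside 0.628% of all genes. Of 8 factors of other iNKT fates, 3 fell in WT stage 3 and 0 rose, where 0.914% of all genes fell. Among the 3 were *Zbtb16* and *Id3*, with log2 fold changes of −1.85 and −3.05 (adjusted p = 0.0122 and 0.0188). None of these 8 passed in *Med23*-deficient against WT stage 2 cells (0 by limma), beside 0.213% of all genes in either direction. At an unadjusted p of at most 0.05, 2 were higher and 3 lower, beside 9.58% of all genes in either direction. *Gata3*, the type 2 factor, had a log2 fold change of 0.82 there (adjusted p = 0.0786). Against WT stage 3, *Gata3*, *Zbtb16* and *Id3* rose by 1.02, 1.48 and 2.41 (adjusted p = 0.0175, 0.0212 and 0.0483), the 3 calls among the 8, where 0.705% of all genes rose.

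Genes that share the D-box or the clock with NFIL3 had median log2 fold changes of 0.11, −0.05 and −0.10 in the 3 comparisons. In WT stage 3 against WT stage 2, 1 of 13 fell, beside 0.914% of all genes. It was *Nr1d1*, the REV-ERB alpha repressor (−1.55, adjusted p = 0.0473), with *Arntl* next (−0.90, adjusted p = 0.107). No clock gene passed in the other 2 comparisons by limma. In *Med23*-deficient against WT stage 2 cells 0.213% of all genes passed in either direction, and against WT stage 3 0.705% rose and 0.628% fell. Of 13 in the first, none had an unadjusted p of at most 0.05, beside 9.58% of all genes in either direction. Of 12 against WT stage 3, 2 were higher and 1 lower at that p, beside 10.2% of all genes in either direction.

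Other transcripts differed between the groups beside the 5 factors. The 8 cell division genes summed to 45.4–58.9 FPKM in WT stage 2, 5.72–5.84 in *Med23*-deficient stage 2 and 4.05–12.6 in WT stage 3. In each comparison with WT stage 2, 2 of them fell. These were *Birc5* and *Mki67* in WT stage 3, where 0.914% of all genes fell (log2 fold changes of −1.62 and −2.81, adjusted p = 0.0445 and 0.0490). In *Med23*-deficient cells they were *Mki67* and *Ccnb2*, where 0.145% of all genes fell (−2.91 and −2.77, adjusted p = 0.0301 and 0.0367). The 10 activation-induced genes summed to 173–224, 166–197 and 180–268 FPKM in the same order of groups. Of markers of other cells, the gamma delta T list (3 of 4 in the table) summed to 6.48–11.4, 2.24–4.32 and 0.11–1.48, most of it *Blk* in WT stage 2, and the B and plasma cell list (3 of 7) to 4.99–5.94, 0–0.03 and 0–0.48, nearly all of it in WT stage 2 being *Sdc1* (5.42 ± 0.810 FPKM, SD, n = 3), with *Cd79a* at 0 in each WT stage 2 library. The NK cell list (2 of 4) summed to 0–0.32 and 0 in the stage 2 groups and 3.11–6.26 in WT stage 3, all of the latter *Klri2*, with *Eomes* at 0 in every WT stage 3 and *Med23*-deficient library. The part of these transcripts in the differences of the 5 factors was not tested. Double-positive thymocyte genes (6 of 6) summed to 2.52–3.53, 0.86–3.60 and 2.32–4.30, with overlap of the groups, as did myeloid genes (3 of 4), at no more than 1.69 in any library.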

How the data were processed

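RNA of sorted thymic iNKT cells was profiled in 9 libraries, 3 per group, from a low-input kit for stranded total RNA. According to the methods and the submitters' processing notes, the authors trimmed reads with Trimmomatic 0.36, aligned them to mm10 with HISAT2, kept reads hitting no more than 2 loci and quantified GENCODE vM12 genes with StringTie. The authors deposited FPKM for 21883 genes, rounded, with replicates kept apart. The table holds no read counts, so depth is unknown and counting error cannot be given. Of genes above an FPKM of 1, no 2 libraries shared more than 0.268% of values.

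From these FPKM, log2(FPKM + 1) was fitted in R 4.3.3 by limma 3.58.1 (lmFit, eBayes with trend) over the 6 libraries of each comparison and all genes above 0 in at least 1 of them, with Benjamini-Hochberg adjustment over all genes. An exact permutation test of 3 against 3 libraries cannot go below p = 0.1 (two-sided) and was not used. Calls used an adjusted p of at most 0.05 or, after the study, a fold of at least 2 with an unadjusted p of at most 0.05. On simulated data with 200 genes changed by 2 on the log2 scale, 86.5% were recovered for WT stage 3 against WT stage 2, 89.0% for *Med23*-deficient against WT stage 2 and 84.0% for *Med23*-deficient against WT stage 3, and 6.49%, 9.18% and 10.2% of the genes called were unchanged ones.

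The 5 factors and the lists (NKT1 effector, residency, recirculation, partner and upstream, other fates, clock and D-box, activation-induced, cell division and cell type marker genes) were chosen with earlier results of these data known. All 5 factors and *Med23* were named, and of each list in each comparison up to 4 genes called by adjusted p, in order of p, or the 2 smallest p where fewer than 2 passed; of each factor, the 3 genes with the highest Pearson r over the 9 libraries among those with a mean FPKM of at least 1. *Ccl3* of the NKT1 list was not analysed here. Of the genes that this rule names, 2 are counted in their lists but not reported here by name.

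The alternatives were pseudocounts of 0.1 and 0.01, a mean FPKM of at least 1, no filter, quantile normalization, an upper quartile common to the libraries, the TPM scale, limma without trend, a per-gene linear model as in Ballgown, with library size as covariate (Ballgown-style), all 9 libraries in 1 fit, the replicate number as a block and each library left out. A TPM scale without *Gm23935* was added after seeing the data. Figures were drawn with Python 3.11.15 and matplotlib 3.10.9.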

Additional observations from a re-analysis of the deposited data

How the results depend on the processing

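The direction of every factor held under all alternatives in all 3 comparisons, except that *Hopx* in *Med23*-deficient against WT stage 2 cells turned to −0.13 without WT stage 2 replicate 3 (−0.13 to 0.64 on leaving out each library). In WT stage 3 against WT stage 2, the number of factors with an adjusted p of at most 0.05, 1 of 5, became 2 with a pseudocount of 0.01, with a mean FPKM filter of 1 and with all 9 libraries in 1 fit, *Tbx21* being the addition (adjusted p = 0.0461, 0.0283 and 0.0243, limma), and 0 with the Ballgown-style model. It was 0 to 1 on leaving out each library. The 4 of 5 past the fold and p thresholds became 3 with a pseudocount of 0.01 and 1 with the Ballgown-style model. On leaving out each library that number was 3 to 4. In *Med23*-deficient against WT stage 2 cells both numbers stayed at 0 under all alternatives run. In *Med23*-deficient against WT stage 3, the 1 of 5 by adjusted p became 2 with a mean FPKM of at least 1 (*Tbx21*, adjusted p = 0.0437) and 0 with the Ballgown-style model, with all 9 libraries and on leaving out any library (0 to 0), and the 1 of 5 past the fold and p thresholds became 2 with pseudocounts of 0.1 and 0.01 and was 1 to 2 on leaving out each library, 2 without *Med23*-deficient replicate 1. The cause of these shifts was not tested. *Prdm1* has no value under the mean FPKM filter in both comparisons with WT stage 2.

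With the replicate number as a block, the counts by adjusted p were 0 in all 3 comparisons, with adjusted p = 0.0744 for *Zfp683* in WT stage 3 against WT stage 2 and 0.124 for *Hopx* in *Med23*-deficient against WT stage 3, and over all genes 19, 0 and 42 passed, against 346, 44 and 278 without the block. Same-numbered libraries correlated at 0.03 to 0.16, 0.00 to 0.14 and 0.04 to 0.27 in their deviations from the group means in the order of comparisons above, and 6, 2 and 3 of 6 libraries correlated best with their own number, so the numbers were not taken to pair the libraries.

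Over the alternatives that kept all libraries, the number of all genes by adjusted p ran from 5 to 626, 0 to 176 and 18 to 395, and on leaving out a library from 22 to 137, 1 to 8 and 72 to 174. By fold and p it ran from 698 to 1452, 384 to 974 and 479 to 1221. In *Med23*-deficient against WT stage 2 cells the share of those genes that were higher was 37.8%, 51.8% with the Ballgown-style model and 28.6% on the TPM scale. The TPM scale moved the median log2 fold change, over genes whose mean FPKM reached 1, from −0.05 to −0.14 in WT stage 3 against WT stage 2 and from −0.05 to −0.16 in *Med23*-deficient against WT stage 2 cells. With depth unknown, the FPKM of *Prdm1* and *Nfil3*, near the low end of the table, carry a counting error that cannot be stated.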

Other observations

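Among the activation-induced genes, 1 of 10 fell in WT stage 3 against WT stage 2, beside 0.914% of all genes. It was *Irf4*, a factor induced through the T cell receptor (log2 fold change −2.55, adjusted p = 0.0286, limma), which went from 7.89 ± 2.16 to 0.537 ± 0.465 FPKM (SD, n = 3). *Nr4a1* was next (−1.59, adjusted p = 0.148). In *Med23*-deficient against WT stage 2 cells 0 of 10 passed by limma, beside 0.213% of all genes in either direction. At an unadjusted p of at most 0.05, 1 was lower (9.58% of all genes in either direction). It was *Egr1*, an immediate early factor (−1.12, adjusted p = 0.199), with *Irf4* at −0.71 (adjusted p = 0.535). Against WT stage 3, 0 of 10 passed, where 0.705% of all genes rose and 0.628% fell. At an unadjusted p of at most 0.05, 2 were higher and 2 lower (10.2% of all genes in either direction). The smallest p belonged to *Nr4a2* (−0.95, adjusted p = 0.0842) and *Irf4* (1.85, adjusted p = 0.102). The medians of the list were 0.14, −0.21 and −0.31 in the 3 comparisons.

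Of the 8 cell division genes, 0 passed the adjusted p in *Med23*-deficient against WT stage 3 cells, where 0.705% of all genes rose and 0.628% fell (limma). None had an unadjusted p of at most 0.05, beside 10.2% of all genes in either direction. *Birc5* was at 0.42 (adjusted p = 0.654) and *Plk1* at −0.26 (adjusted p = 0.750). The clock genes *Cry1* and *Per2* had the smallest p of their list in *Med23*-deficient against WT stage 2 cells, at log2 fold changes of −0.55 and −0.31 (adjusted p = 0.551 and 0.672), and *Nr1d1* and *Arntl* against WT stage 3, at 1.17 and 0.64 (adjusted p = 0.208 and 0.218). *Cxcr3*, a chemokine receptor that T-bet is known to induce, stood at 31.6 ± 3.88 FPKM in WT stage 2, 45.5 ± 4.97 in *Med23*-deficient stage 2 and 47.1 ± 4.07 in WT stage 3, while *Il2rb*, which encodes CD122, stood at 121 ± 15.6, 129 ± 30.0 and 311 ± 33.5. These last 2 genes were chosen after their values were seen.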
